A study of Caenorhabditis elegans with 12 samples.

Results

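The glutathione S-transferase genes of Caenorhabditis elegans were followed across 12 expression arrays of whole L4 larvae. Members were all genes whose single symbol in the platform annotation was gst, gsto or gstk with a number, and a gene with several probe sets was represented by the brightest, judged by its mean across all 12 arrays. This rule, which used no difference between groups, found 45 of the 17118 genes with a single symbol. Of these, 44 had 1 probe set with a single symbol and gst-40 had a second one. The family comprised 38 numbered gst genes beside the zeta-class genes gst-42 and gst-43, the omega-class genes gsto-1, gsto-2 and gsto-3, and the kappa-class genes gstk-1 and gstk-2. The 4 further family members in the reference gene list, gst-25, gst-34, gst-35 and gst-37, were not analysed here.

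The animals were wild type (N2 Bristol) or carried MT KO mtl-1,mtl-2(zs1), a double knockout of both metallothionein genes given by the labels in the same N2 (Bristol) background. The parents were kept at 20 °C on nematode growth medium with E. coli OP50. Their offspring, synchronised by bleaching, grew to the L4 stage either without Cd or in 30 µM Cd from hatching onwards, and each of the 4 groups had 3 arrays. MT KO is a single mutant strain, and the labels do not say whether replicates were separate cultures, so p-values measure only how far these arrays scatter, and that scatter may be technical. The study asked how the response to cadmium depends on metallothioneins, the small cysteine-rich proteins that bind the metal.

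Glutathione S-transferases join the tripeptide glutathione to reactive, electrophilic compounds, including products of lipid oxidation, and the conjugates are then pumped out of the cell by transporters of the MRP family. Cadmium binds the thiol of glutathione, and in worms glutathione is also the building block of phytochelatins, peptides that sequester cadmium. Many gst genes of the worm are targets of SKN-1, the relative of mammalian Nrf transcription factors, which drives detoxification genes in the intestine. Omega-class enzymes use a cysteine for thiol transfer, and kappa-class enzymes have a fold of their own and occur in mitochondria and peroxisomes.

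Values are log2 GCRMA values, 1 per probe set and array, so a difference of 1 is a 2-fold ratio. Groups were compared with limma over 22548 probe sets, with Benjamini-Hochberg adjustment over all of them, and an adjusted p under 0.05 is called a change. A value with ± is a mean and SD (n = 3), and the SE of a difference comes from the limma fit. The median of all values was 4.03. Of the 45 members 27 had a group mean above it, while 18 stayed below it in every group, near the low end of the scale. The highest group mean among those 18 was 3.68. Because 1 group above the median was enough, a gene could enter the 27 through the group where it was raised. Counts among the 27 are therefore descriptions and depend in part on the responses counted. The brightest mtl-2 probe set, which checks the strain label, had a mean of 11.52 in wild type and 3.93 in MT KO without Cd, a fall by 7.60 (SE 0.22).

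Several properties of the arrays moved with the groups. The 3′ minus 5′ signal of the GAPDH and actin control probe sets, an index of RNA integrity, was 1.98 ± 0.78 in untreated and 1.13 ± 0.10 in Cd-treated wild type, and 1.38 ± 0.10 in untreated and 0.92 ± 0.17 in Cd-treated MT KO. Wild type without Cd replicate 1 stood apart, with a signal of 2.81 and the lowest array weight, 0.289. Tissue and stage markers also differed. With Cd in MT KO 14 of 16 sperm markers fell, and their mean log2 level per array lay between 7.91 and 8.44 without Cd and between 5.68 and 5.94 with Cd. In wild type none of the 16 was called with Cd (limma), with ranges of 7.41 to 7.88 without and 7.13 to 7.33 with Cd. Of 10 intestine markers 2 rose and 3 fell with Cd in wild type, where array means went from between 8.69 and 8.78 to between 8.39 and 8.45. In MT KO 2 rose and 4 fell, and the ranges were 8.78 to 8.81 without and 8.44 to 8.72 with Cd; 1 of the 10 markers lay below the median of all values in every group. Of the other lists, 5 of 7 pharynx, 4 of 10 neuron and 6 of 10 oocyte and embryo markers rose with Cd in wild type. In MT KO 6 of 7 pharynx and 7 of 10 neuron markers rose and, of 10 moulting markers, 7 fell and 1, mlt-7, rose by 1.32. These are whole animals, so fewer cells of a type and less RNA per cell cannot be told apart. Over all probe sets, 6.44% were called higher and 5.5% lower with Cd in wild type, and 11.5% and 11% in MT KO. Between strains with Cd, 13 of 16 sperm, 6 of 10 moulting and 5 of 10 oocyte and embryo markers were called lower in MT KO. Higher there were 4 of 7 pharynx, 3 of 10 neuron and 1 of 10 moulting markers, against 3.62% of all probe sets higher and 4.94% lower. The Cd response in MT KO minus that in wild type was called lower for 12 of 16 sperm and higher for 5 of 7 pharynx markers. The part of these markers in the results was not tested.

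In wild type, cadmium changed 21 of the 45 glutathione S-transferase genes, 13 upwards and 8 downwards, so the family split and did not move as a block. Over all probe sets 11.9% were called, 6.44% higher and 5.5% lower. Of the 27 members with a group mean above the median of all values 19 were called, against 21.2% of such probe sets. One of the 19, gst-15, entered the 27 only through its means with Cd. Arrays of the groups did not overlap for 27 members, 15 higher (13.4% of all probe sets) and 12 lower (11.5%), against 25% in either direction. The median difference over the 45 members was 0.02, against 0.00 over all probe sets. The strongest responses were rises of the numbered genes gst-38 and gst-24, and the largest falls were those of gst-10 and gst-13. Of the members called, 5 rose and 2 fell by at least 2-fold.

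The gene gst-38 read 7.27, 7.35 and 7.56 in the arrays of wild type without Cd and 10.42, 10.47 and 10.28 with Cd. Every Cd array lay far above every array without Cd, and the difference of 2.997 (SE 0.12, limma adjusted p = 6.51e-07) is a 7.98-fold rise. For gst-24, whose product is among the worm enzymes that conjugate the lipid peroxidation product 4-hydroxynonenal, the arrays read 5.94, 6.31 and 6.65 without Cd and 8.50, 8.60 and 8.60 with it. This was a 4.82-fold rise (log2 difference 2.27, SE 0.20, limma adjusted p = 1.01e-04), again without overlap. The gene gst-33 went from 3.47, 3.64 and 4.01, at or below the median of all values, to 5.19, 4.96 and 5.23. Its difference was 1.42 (SE 0.15, limma adjusted p = 3.50e-04).

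Smaller rises came from members of 3 classes. The numbered gene gst-29 read 4.66, 3.63 and 3.98 without Cd and 5.20, 5.62 and 5.01 with Cd, a difference of 1.19 (SE 0.25) between groups that did not overlap despite the wide spread of the controls. The kappa-class gene gstk-2 rose by 1.15 (SE 0.16), from 4.22, 4.49 and 4.62 to 5.40, 5.68 and 5.70. The omega-class gene gsto-3 rose by 0.9999 (SE 0.20), from 4.17, 4.87 and 5.15 to 5.69, 5.71 and 5.79, with all Cd arrays close together and wild type without Cd replicate 1 lowest. Among the numbered genes gst-7 rose by 0.97 (SE 0.19), gst-15 by 0.81 (SE 0.19), gst-5 by 0.73 (SE 0.12) and gst-20 by 0.71 (SE 0.14). The product of gst-5 also conjugates 4-hydroxynonenal. The arrays of gst-5 read 8.44, 8.38 and 8.71 without Cd and 9.26, 9.32 and 9.14 with Cd, with no overlap. The gene gst-1, whose product is known to protect dopaminergic neurons of the worm, rose by 0.47 (SE 0.09), from 9.96, 9.96 and 10.07 to 10.63, 10.29 and 10.49, and gst-16 by 0.36 (SE 0.10) at levels below the median of all values.

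The gene gst-4, the most used reporter of SKN-1 activity in this animal, showed a modest difference. Its arrays read 8.12, 8.12 and 8.13 without Cd and 8.93, 8.29 and 8.75 with Cd. The 3 control arrays were nearly equal and lay below all Cd arrays, and the difference was 0.53 (SE 0.14, limma adjusted p = 0.0412), or 1.45-fold. The call was lost without any of 9 arrays, all but wild type with Cd replicate 2 and MT KO with Cd replicates 2 and 3, with limma adjusted p between 0.0544 and 0.128.

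Falls in wild type were led by gst-10, whose product also acts on 4-hydroxynonenal and is linked to stress resistance and lifespan. It read 9.64, 9.46 and 9.57 without Cd and 8.52, 8.17 and 8.11 with Cd, a fall by 1.29 (SE 0.16, limma adjusted p = 7.60e-04) or to 0.41 of the control level. The gene gst-13 fell by 1.11 (SE 0.11), from 8.18, 8.44 and 8.60 to 7.49, 7.30 and 7.12. Both pairs of groups were clearly separated. The omega-class gene gsto-1, expressed in the intestine and known to protect worms from oxidative stress, fell by 0.88 (SE 0.13), from 9.06, 9.34 and 9.10 to 8.52, 8.02 and 8.32. The gene gst-28 fell by 0.80 (SE 0.11) and the kappa-class gene gstk-1 by 0.79 (SE 0.13), the latter from 7.05, 7.06 and 7.24 to 6.42, 6.20 and 6.38. The remaining falls were gst-12 by 0.61, the zeta-class gene gst-43 by 0.48 and gst-26 by 0.26. For gst-42, a zeta-class gene whose product is the maleylacetoacetate isomerase of tyrosine breakdown, the arrays read 8.08, 7.88 and 7.98 without Cd and 7.72, 7.65 and 7.78 with Cd. They did not overlap, but the difference of −0.27 was not called. Thus the omega and kappa classes each held a member that rose and a member that fell, and no zeta-class gene was called higher.

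When this signal entered the fit as a covariate, 13 members were called, 6 higher and 7 lower, all of them among the 21 and in the same direction. The calls of gst-1, gst-4, gst-7, gst-12, gst-15, gst-16, gst-20 and gsto-3 were lost there (limma adjusted p between 0.0627 and 0.229). Their differences in that fit were 0.40 for gst-1, 0.49 for gst-4, 0.78 for gst-7, −0.60 for gst-12, 0.97 for gst-15, 0.35 for gst-16 and 0.62 for gst-20, all within 1.5 times of those without the covariate, and 0.50 for gsto-3, which had been 0.9999. Without wild type without Cd replicate 1, 19 were called, 11 higher and 8 lower. The call of gst-15 was lost without wild type with Cd replicate 2 (limma adjusted p = 0.0572) or untreated wild-type replicate 2 or 3 (0.068 and 0.0674), and that of gst-12 without wild type with Cd replicate 2 (0.0528). That of gst-26 was lost without any of the wild-type arrays but replicate 1 without Cd (0.0538 to 0.0904), and that of gst-16 without any array but wild type with Cd replicate 3 (0.0513 to 0.112). Without that last array gst-8, at 0.26 with all arrays, was called higher (0.0258).

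**Figure D1:**
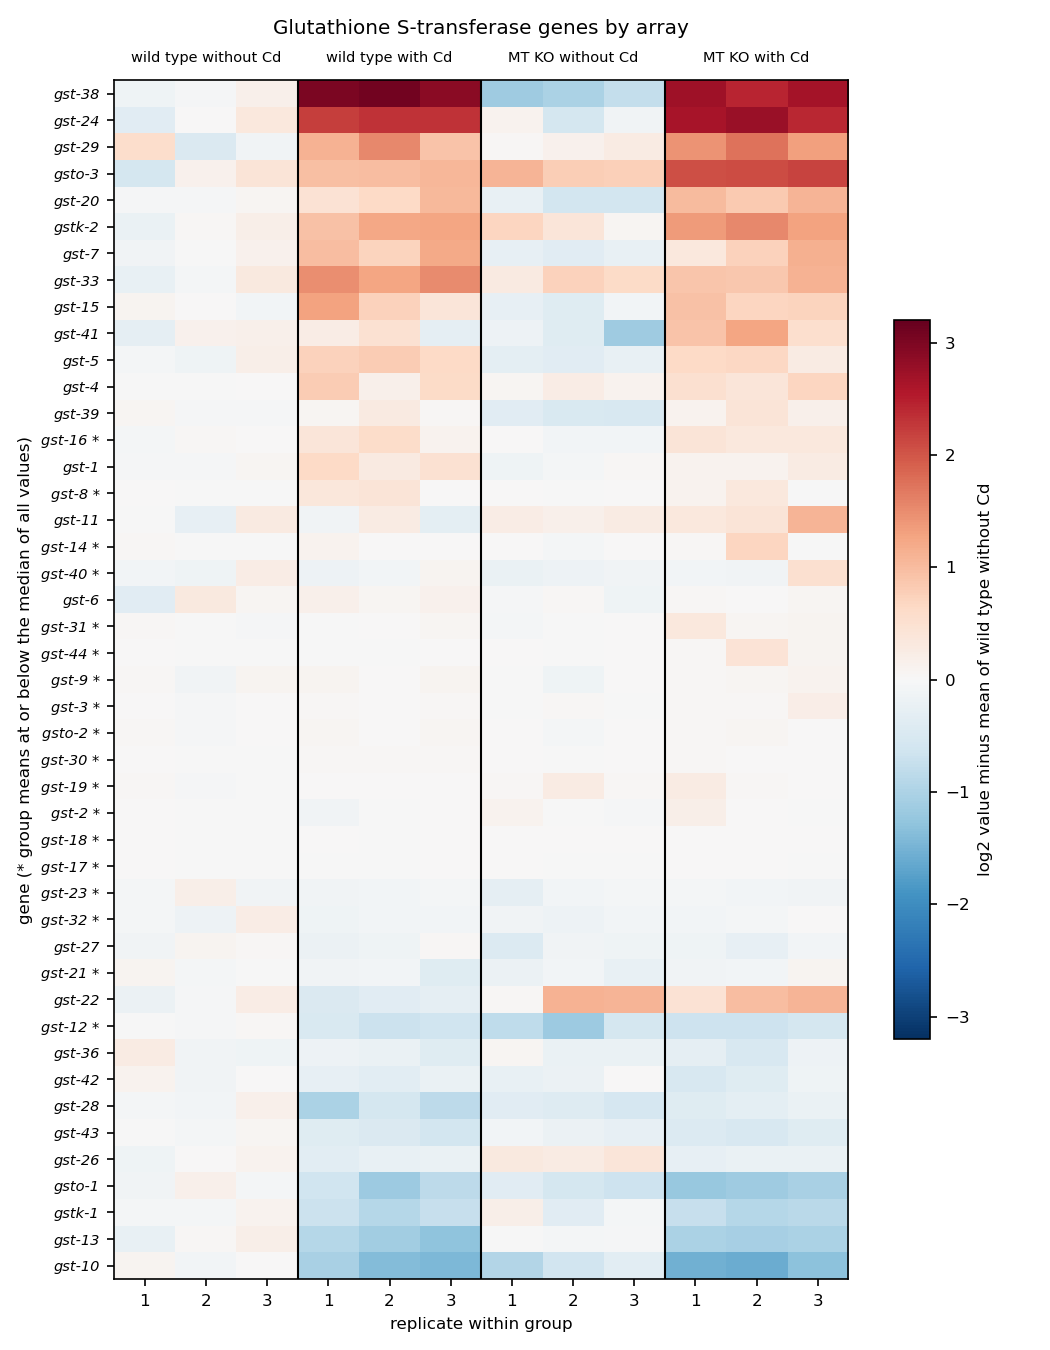
Difference of each log2 value from the mean of wild type without Cd (colour) for the 45 genes (rows, ordered by their mean Cd response over both strains) in the 12 arrays (columns, replicates 1 to 3 of each group). Genes with an asterisk have no group mean above 4.03; gst-38 and gst-24 are darkest red in all 6 Cd arrays, and gst-10 and gst-13 are blue in all 6.

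In MT KO, cadmium changed 18 of the 45 genes, 12 upwards and 6 downwards, against 22.5% of all probe sets (11.5% higher and 11% lower). Among the 27 brighter members 17 were called, against 36.6% of such probe sets, and gst-15, bright only with Cd, was again among them. Groups did not overlap for 28 members, 22 higher (27.3% of all probe sets) and 6 lower (15.9%), against 43.2% in either direction. The median difference was 0.14 over the members and 0.02 over all probe sets. Again gst-38 and gst-24 rose most, and 9 members rose by at least 2-fold, while no called member fell by as much. The rises included gst-41 and gst-39, which were not called in wild type.

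In these animals gst-38 went from 6.26, 6.38 and 6.64 without Cd to 10.10, 9.82 and 10.06 with Cd. The 11.8-fold rise (log2 difference 3.57, SE 0.12, limma adjusted p = 4.09e-07) separated all arrays. The arrays of gst-24 read 6.40, 5.73 and 6.18 without Cd and 8.94, 9.05 and 8.72 with Cd, a 6.94-fold rise (log2 difference 2.80, SE 0.20, limma adjusted p = 1.38e-05). The gene gst-20 read 8.12, 7.77 and 7.77 without Cd and 9.36, 9.21 and 9.46 with it. Its difference, 1.45 (SE 0.14, limma adjusted p = 8.49e-05), was the fourth largest rise of the family in this strain.

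The gene gst-41 read 4.03, 3.81 and 3.05 without Cd and 5.11, 5.46 and 4.75 with Cd. Its groups did not overlap, although MT KO without Cd replicate 3 lay well below the other two, and the difference was 1.48 (SE 0.29, limma adjusted p = 0.00527). In wild type the same gene read 3.92, 4.34 and 4.36 without Cd and 4.44, 4.69 and 3.92 with Cd, which overlapped (difference 0.15, SE 0.29). The interaction of strain and Cd for gst-41, 1.33 (SE 0.42, limma adjusted p = 0.116), was not called in the main fit. It was called with the filter on low values (0.0305) and with array weights (0.0473). The other rises were gst-29 by 1.34 (SE 0.25), gsto-3 by 1.23 (SE 0.20), gst-7 by 1.02 (SE 0.19), gst-15 by 1.02 (SE 0.19), gstk-2 by 1.02 (SE 0.16), gst-5 by 0.83 (SE 0.12), gst-39 by 0.68 (SE 0.09) and gst-16 by 0.41 (SE 0.10).

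The 6 falls in MT KO were all of genes that had also fallen in wild type. The gene gst-13 fell by 0.99 (SE 0.11, limma adjusted p = 1.63e-04), from 8.40, 8.35 and 8.36 to 7.40, 7.34 and 7.40, with hardly any spread in either group. The gene gst-10 fell by 0.85 (SE 0.16), from 8.61, 8.94 and 9.22 to 8.02, 7.97 and 8.24. Next came gstk-1 with a fall by 0.76 (SE 0.13), gsto-1 by 0.60 (SE 0.13), gst-26 by 0.54 (SE 0.06) and gst-43 by 0.27 (SE 0.07). The call of gst-43 was lost without MT KO with Cd replicate 2 (limma adjusted p = 0.0561) or untreated MT KO replicate 1 (0.051). The difference of gst-42, −0.20, was called without MT KO with Cd replicate 3 (0.0481). The 3′ minus 5′ covariate left the count at 18, and all 18 were the same genes in the same direction.

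Both responses can be set side by side, because their differences share no array. The tests, however, share 1 estimate of the spread per gene from all 12 arrays, so the calls in the 2 strains are not independent. Of the members 10 rose in both strains and 6 fell in both, and no gene was called in opposite directions. These 16 are 76.2% of the wild-type calls and 88.9% of the MT KO calls; over all probe sets, calls in the same direction made up 62.4% of the wild-type and 33.2% of the MT KO calls. Across the 45 genes, which share arrays and normalization, the log2 differences in the 2 strains correlated at Pearson r = 0.903 and Spearman rho = 0.806, as a description; over all probe sets Pearson r was 0.637. Of the 10 genes that rose in both, 9 had the larger estimate in MT KO, and of the 6 that fell in both, 5 had the larger fall in wild type. Among those 5, gst-10 has a further probe set, annotated to F56A4.3 as well and so outside the rule. There the order was reversed, with falls by 0.88 in wild type and 1.06 in MT KO. None of the 16 genes was called in the interaction of strain and Cd (limma). An unadjusted p under 0.05 was seen there for 4 of the 16, against 16.9% of all probe sets.

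Called in wild type and not in MT KO were gst-1, gst-4, gst-12, gst-28 and gst-33, and only gst-12, gst-28 and gst-33 of these were called in the test of the difference. In MT KO the differences of gst-1 and gst-4 were 0.23 and 0.40, and both lay near the threshold. Without wild type with Cd replicate 2 the limma adjusted p in MT KO was 0.0435 for gst-1 and 0.00986 for gst-4, and without wild type with Cd replicate 1 it was 0.04555 for gst-4. These arrays are not part of that difference, which stayed the same, but of the shared estimate of the spread. The gene gst-1 also passed after quantile normalization (0.041), and gst-4 with the filter on low values (0.0453) and with the MT KO arrays alone (0.0422). That of gst-33 was 0.0477 without wild type without Cd replicate 3, and that of gst-12 0.0335 without MT KO without Cd replicate 3.

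**Figure D2:**
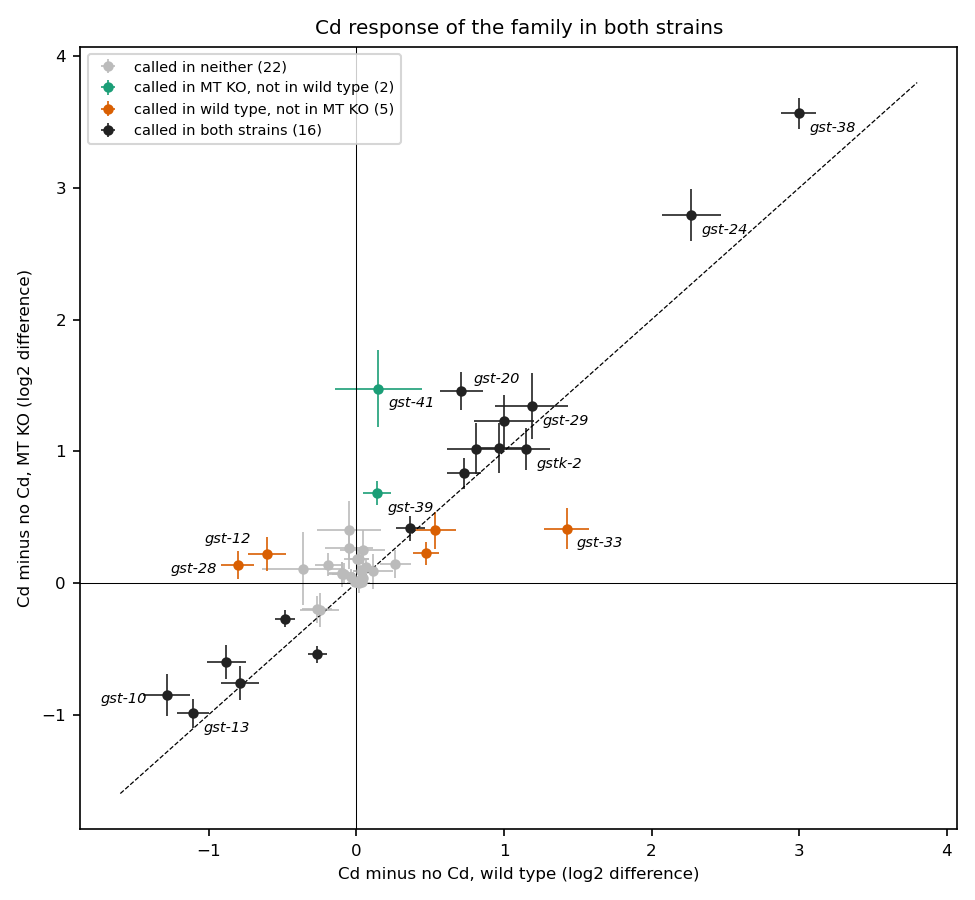
Log2 difference with Cd in wild type (horizontal) and in MT KO (vertical) for the 45 genes, with limma SE bars (n = 3 per group); the dashed line marks equal responses. The 16 genes called in both strains (black) lie in the lower left and upper right, gst-33 lies below the line, and gst-41 lies above it.

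Without cadmium, 3 of the 45 members (6.67%) were lower in MT KO and none was higher. Over all probe sets 1.65% were called (0.94% higher and 0.705% lower), a smaller share than in the family. An unadjusted p under 0.05 (limma) was seen for 15 of the 45 members, also a larger share than the 14.9% of all probe sets. Among the 27 brighter members 2 were called, against 2.71% of such probe sets, and groups did not overlap for 3 members higher and 12 lower, against 8.43% and 7.42% of all probe sets (15.9% together). The 3 called were gst-38, gst-12 and gst-39. The gene gst-38 had its arrays at 7.27, 7.35 and 7.56 in wild type and at 6.26, 6.38 and 6.64 in MT KO, and the fall by 0.97 (SE 0.12, limma adjusted p = 0.00613) put all MT KO arrays below all wild-type arrays. The gene most raised by cadmium was thus also the called member with the largest difference between untreated strains. The gene gst-12 fell by 0.85 (SE 0.13, limma adjusted p = 0.0153), from 3.68, 3.64 and 3.72 to 2.86, 2.51 and 3.13, all below the median of all values. The gene gst-39 fell by 0.45 (SE 0.09, limma adjusted p = 0.0484), from 8.07, 7.96 and 7.95 to 7.63, 7.50 and 7.48.

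The call of gst-39 was lost without any array but wild type with Cd replicate 2 and MT KO with Cd replicate 2, with limma adjusted p between 0.0568 and 0.144, and with the 3′ minus 5′ covariate (0.156). None of the 3 was called in a fit of these 6 arrays alone, where limma adjusted p was 0.089 for gst-38, 0.135 for gst-12 and 0.0868 for gst-39. Leaving out 1 array also added calls. These were gsto-3 (higher) without untreated wild-type replicate 1 or 3 (0.0393 and 0.0268), gst-26 and gst-33 (higher) without replicate 3 of that untreated group (0.0242 and 0.0469), and gst-22 (higher) without MT KO without Cd replicate 1 (0.0299). Without wild type with Cd replicate 2, gst-28 and gsto-1 were called lower (0.0458 and 0.0474).

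With cadmium in both strains, 3 members (6.67%) were higher in MT KO and none was lower, against 8.56% of all probe sets (3.62% higher and 4.94% lower). An unadjusted p under 0.05 (limma) was seen for 8 of the 45 members, against 19.9% of all probe sets. All 3 were among the 27 brighter members, against 14.6% of such probe sets called, and groups did not overlap for 10 members higher and 4 lower, against 14.3% and 11.5% of all probe sets (25.9% together). The omega-class gene gsto-3 read 5.69, 5.71 and 5.79 in wild type and 6.80, 6.81 and 6.89 in MT KO. The difference of 1.10 (SE 0.20, limma adjusted p = 0.00938), a 2.15-fold ratio, was far larger than the spread in either group, and it was called under every alternative tried. The gene gst-22 read 4.85, 4.95 and 5.03 in wild type and 5.77, 6.29 and 6.40 in MT KO, a difference of 1.21 (SE 0.28, limma adjusted p = 0.0263). In MT KO without Cd the same gene read 5.34, 6.41 and 6.39, so the level with and without Cd overlapped there. The gene gst-28 read 6.85, 7.28 and 7.02 in wild type and 7.47, 7.55 and 7.63 in MT KO, a difference of 0.50 (SE 0.11, limma adjusted p = 0.0215).

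The call of gst-22 was lost without any wild type with Cd replicate (limma adjusted p = 0.092, 0.072 and 0.0617 for replicates 1 to 3) and without MT KO with Cd replicates 2 and 3 (0.0842 and 0.0807). That of gst-28 was lost without wild type with Cd replicates 1 and 3 (0.0715 and 0.0665) and without MT KO with Cd replicates 2 and 3 (0.0621 and 0.0667). The strain difference of gst-38 with Cd, −0.40, was called without MT KO without Cd replicate 3 (0.0433). It was also called lower with the 3′ minus 5′ covariate (0.046), with array weights (0.029) and with the filter on low values (0.0478). With that covariate gst-33 was called lower too (difference −0.54, limma adjusted p = 0.0228). The strain difference of gst-1, −0.40 when wild type with Cd replicate 2 was left out, was called then (0.0179).

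The interaction of strain and Cd, the Cd response in MT KO minus that in wild type, was called for 4 members, 3 higher and 1 lower, against 5.45% of all probe sets (2.09% higher and 3.36% lower). Of the 4, 3 were among the 27 brighter members, against 9.15% of such probe sets. The median interaction was 0.15 over the members and 0.02 over all probe sets. Among the called members gst-28 gave the highest value, 0.94 (SE 0.16, limma adjusted p = 0.00804). It fell with Cd in wild type, from 7.80, 7.76 and 8.01 to 6.85, 7.28 and 7.02, whereas MT KO read 7.48, 7.45 and 7.31 without Cd and 7.47, 7.55 and 7.63 with it. The value for gst-33 was −1.01 (SE 0.22, limma adjusted p = 0.0285). This gene rose in wild type and read 4.004, 4.43 and 4.33 without Cd and 4.60, 4.58 and 4.83 with Cd in MT KO, a difference of 0.41 that was not called although the arrays did not overlap.

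For gst-12 the interaction was 0.83 (SE 0.18, limma adjusted p = 0.0302), with levels below the median of all values throughout. Its 9 arrays outside wild type without Cd lay between 2.51 and 3.19, below the 3 of that group. The gene gst-39 gave 0.54 (SE 0.13, limma adjusted p = 0.0462). It read 8.06, 8.29 and 8.04 in wild type with Cd and 8.10, 8.41 and 8.15 in MT KO with Cd, so that the strains overlapped under Cd and differed without it. The 4 values share the arrays of the strain comparisons and are not independent of them.

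The interaction of gst-28 was called without each of the 12 arrays in turn. That of gst-12 was lost without any MT KO with Cd array, without wild type with Cd replicates 2 and 3 and without any wild type without Cd array (limma adjusted p between 0.0541 and 0.0705). That of gst-33 was lost without MT KO with Cd replicates 1 and 2, MT KO without Cd replicates 2 and 3, wild type with Cd replicates 1 and 3 or wild type without Cd replicate 2 (0.0652 to 0.0734). That of gst-39 was lost without MT KO replicates 2 and 3 of either treatment, wild type with Cd replicates 1 and 3 or any wild type without Cd array (0.0587 to 0.112). In turn gst-20 was called without wild type with Cd replicate 3 (0.0181) or MT KO without Cd replicate 1 (0.0366), and gst-38 without MT KO without Cd replicate 3 (0.0425). Both gst-20 and gst-41 were called higher with the filter on low values (0.0327 and 0.0305) and with array weights (0.034 and 0.0473).

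**Figure D3:**
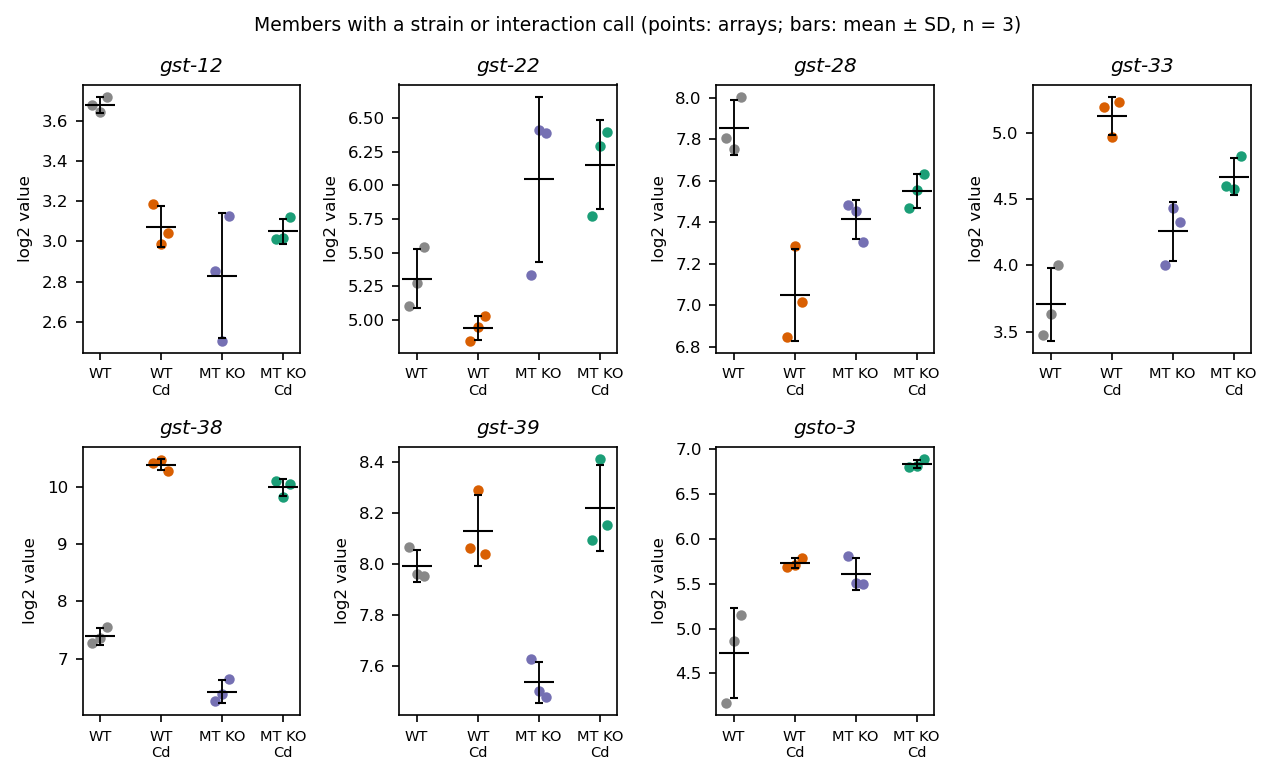
Log2 values of the 7 genes with a strain or interaction call in wild type (WT) and MT KO, without and with Cd; points are arrays and black bars are mean ± SD (n = 3), and each panel has its own axis, which does not start at 0. The MT KO points of gst-38 without Cd lie below the wild-type ones, those of gsto-3 with Cd above them, and for gst-28 the drop with Cd seen in wild type is missing in MT KO.

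The members are spread unevenly over the genome: in the reference gene order, 24 of the 45 lay on chromosome II, 8 on V, 5 on IV, 4 on III, 3 on X and 1 on I. With at most 2 other protein-coding genes allowed between them, 23 measured members fell into 4 runs of neighbours, and the other 22 stood alone. In wild type 10 of the 23 and 11 of the 22 were called with Cd, and in MT KO 8 and 10. In 2 of the 4 runs, both on chromosome II, called rises and called falls stood in the same run.

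The longest fully measured run holds gst-20, gst-24, gst-15, gst-14, gst-12, gst-16, gst-19, gst-17 and gst-18, in this order on chromosome II. The first 3 neighbours and gst-16 rose in both strains, gst-12 between them fell in wild type, and the other 4 were not called in either Cd comparison. Differences in this run ranged from −0.61 to 2.27 in wild type and from −0.00 to 2.80 in MT KO. Only 3 of its 9 genes had a group mean above the median of all values, and the remaining 6 stayed at or below it. The probe set of gst-20 is marked by its name as shared among similar transcripts, as are those of gst-16 and gst-19, so signals of related copies could be mixed there.

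The run of gst-26, gst-27, gst-28, gst-29, gst-39, gst-31 and gst-32 on chromosome II mixed directions most. With Cd in wild type gst-26 and gst-28 fell and gst-29 rose, while in MT KO gst-26 fell and gst-29 and gst-39 rose. The brightly detected gst-27 read between 9.19 and 9.69 in all 12 arrays and was called in no comparison; its Cd differences were −0.10 in wild type and 0.07 in MT KO. In the run of gst-6, gst-7, gst-8 and gst-9, gst-7 rose in both strains, whereas its direct neighbour gst-6 had differences of 0.11 and 0.09, and gst-8 and gst-9 stayed below the median of all values. On chromosome IV gst-4 lay next to gst-2 and gst-3, both below that median in every group. The most responsive member, gst-38, stood alone on chromosome V.

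**Figure D4:**
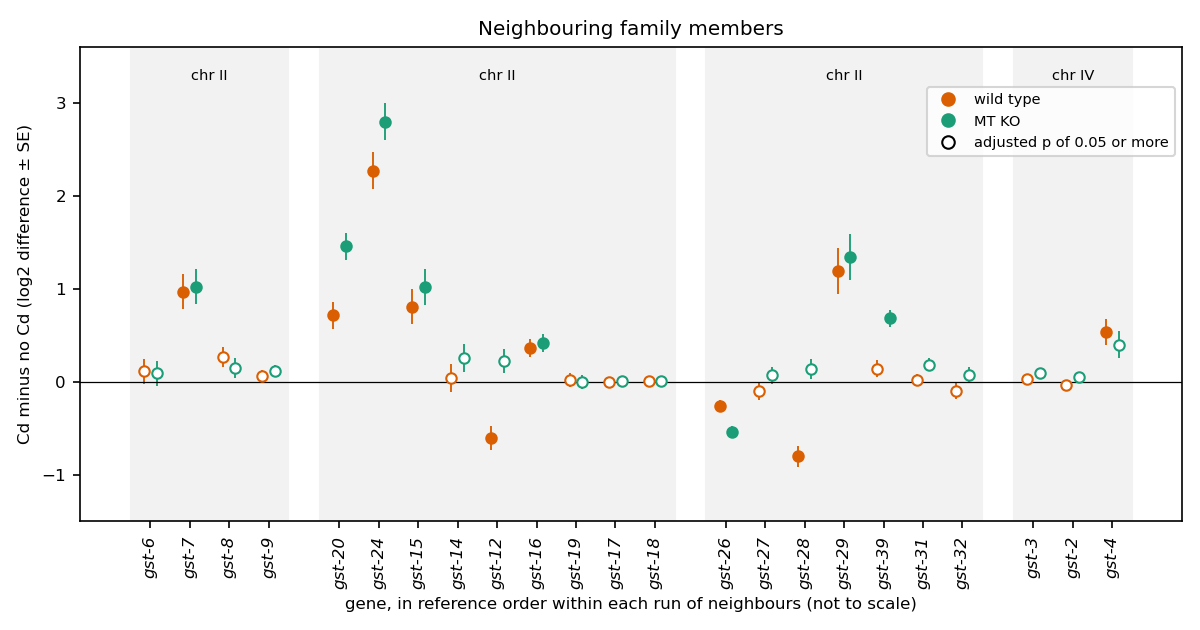
Log2 difference with Cd (limma estimate with SE, n = 3 per group) in wild type (orange) and MT KO (green) for the 23 measured members in 4 runs of neighbouring genes, in reference order and not to scale; open symbols did not pass. The peak of gst-24 is flanked by smaller rises of gst-20 and gst-15, and in the third run gst-28 lies below 0 in wild type next to gst-29 above 0.

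A large part of the family gave no call. In neither Cd comparison were 22 members called, of which 16 stayed below the median of all values in every group. Among the members below that median that were not called, Cd differences ran from −0.19 to 0.26 in wild type and from −0.00 to 0.27 in MT KO. The 6 brighter ones were gst-6, gst-11, gst-22, gst-27, gst-36 and gst-42. Over all 5 comparisons 24 members were called at least once and 21 never. Apart from gst-40, 8 members had probe sets whose names mark shared sequence, namely gst-9, gst-16, gst-19, gst-20, gst-27, gst-33, gst-41 and gstk-2, and the probe set used for gst-40 is of a kind that can pick up unrelated transcripts. For these genes this limits how far the signal can be assigned to a single gene.

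Genes that supply and turn over glutathione were taken as a list beside the family. Over all probe sets, 6.44% were called higher and 5.5% lower with Cd in wild type, with a median difference of 0.00. In MT KO these shares were 11.5% and 11%, with a median of 0.02. Of the 18 measured genes of the list 1 rose and 4 fell with Cd in wild type, with a median of −0.12. A rise by 0.55 was seen for pcs-1, which encodes phytochelatin synthase, while the glutathione synthetase gene gss-1 fell by 0.50, the glutathione peroxidase genes gpx-7 and gpx-1 by 0.72 and 0.49, and the glutaredoxin gene glrx-5 by 0.55. The gene gcs-1, which encodes the rate-limiting enzyme of glutathione synthesis and is a classical SKN-1 target, differed by −0.07 and was not called. In MT KO 4 rose and 3 fell (median −0.06), with rises of the peroxidase genes gpx-5 by 1.78, gpx-3 by 0.98 and gpx-6 by 0.50 and of pcs-1 by 0.57. The peroxidase genes gpx-7 and gpx-1 fell there by 0.95 and 0.59, and the glutaredoxin gene glrx-21 by 0.60.

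The same shares and medians over all probe sets apply to the next lists. Of 9 transporter genes, mrp-1 to mrp-8 and hmt-1, 4 fell with Cd in wild type and none rose (limma), with a median of −0.25. These were mrp-4 by 0.94, mrp-5 by 0.74, the cadmium tolerance transporter gene hmt-1 by 0.73 and mrp-1 by 0.34. In MT KO mrp-2 rose by 0.43, and mrp-4 and hmt-1 fell. Of 7 measured genes of SKN-1 and its regulators, wdr-23, a negative regulator that targets SKN-1 for degradation, rose in both strains by 0.56 and 0.49. In wild type xrep-4 rose by 0.41 as well, and skn-1 itself, at 0.41 in wild type and 0.38 in MT KO, was not called. Of 10 measured relatives with a GST-like fold, 3 rose and 1 fell in wild type and 5 rose and 1 fell in MT KO. Here cdr-1, a cadmium-responsive gene, rose by 6.78 and 2.27, and exl-1, a chloride channel-like gene, fell by 0.52 and 0.85. The smaller rise of cdr-1 in MT KO started from a higher level. Without Cd it was 4.10 higher there than in wild type (limma adjusted p = 2.43e-06). With Cd the strain difference of cdr-1, −0.42, was not called.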

How the data were processed

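The deposited table holds 1 log2 value per probe set and array, which the authors made with GCRMA, per the submitters' processing notes; no version is stated there. GCRMA in general corrects background from probe sequence, gives arrays a common distribution and summarises each probe set. Per the labels, 200 ng of RNA per sample was amplified and labelled with biotin. Values were used as deposited, without further normalization; precision is limited by 3 arrays per group. After 77 control probe sets were set aside, 1 mean per group was fitted with limma 3.58.1 (R 4.3.3) to the 12 arrays (8 residual and 1.38 prior degrees of freedom), and 5 two-sided contrasts were adjusted over 22548 probe sets. Symbols came from the platform annotation, and chromosome and neighbours from RefSeq WBcel235, in which all 45 members matched; no coordinates are given. Members given in full were up to 8 called rises and 8 falls per comparison plus gst-1, gst-4, gst-5, gst-10, gst-42, gsto-1 and gstk-1. Members, lists and tests were chosen with earlier results of these data known. The fit was tested on simulated data. Alternatives were quantile normalization, a filter on low values, an intensity trend, a robust prior, array weights, the replicate number as a block, a covariate for the 3′ minus 5′ signal, a minimum fold, other choices of probe set, each array left out and the arrays of the compared groups alone. Sequences of promoters and proteins were not analysed here.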

Additional observations from a re-analysis of the deposited data

Results flagged for a closer look

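The Cd response differed between the strains by the interaction test for 4 members. The log2 value, MT KO minus wild type, was 0.83 for gst-12, 0.94 for gst-28, −1.01 for gst-33 and 0.54 for gst-39 (limma adjusted p = 0.0302, 0.00804, 0.0285 and 0.0462, n = 3 per group). Dixon's check for single deviating samples was not applied, since it is not made in groups of 3.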

How the results depend on the processing

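With the alternatives run, no member's call reversed. Without single arrays the number called ranged from 17 to 20 with Cd in wild type (21 with all arrays), from 17 to 20 with Cd in MT KO (18), from 2 to 5 between strains without Cd (3), from 1 to 4 with Cd (3) and from 1 to 5 for the interaction (4). Requiring more than a 1.2-fold difference (limma treat) gave 11, 15, 1, 1 and 1 calls in that order, by construction a stricter rule. With the 3′ minus 5′ covariate 13 were called with Cd in wild type and 5 between strains with Cd. With only probe sets above the median, 27 members were tested and 5 were called between strains both without and with Cd. A member could pass this filter through the group where it was high, as gst-11 did with its call between strains with Cd. With only the arrays of the groups compared, limma called 0 members between strains without Cd, and 23 probe sets in all. An unadjusted p under 0.05 was seen there for 15 of the 45 members, against 12.5% of all probe sets. The cause of these shifts was not tested. Of the calls with all arrays, 10 of 21, 15 of 18, 0 of 3, 1 of 3 and 1 of 4 held under every alternative. Replicate numbers were not used as pairs in the main fit. Correlations of same-numbered deviations ran from −0.204 to 0.242. Of 6 samples, 4 correlated best with their own number for Cd in wild type and 5 for Cd in MT KO. Between strains, 1 did so without Cd and 3 with Cd. A shared effect of the replicate number in the Cd comparisons was not tested. With the replicate number as a block 19, 18, 3, 3 and 3 members were called.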

Other observations

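Single arrays of 3 members below or near the median of all values differed from the others of their group. MT KO with Cd replicate 3 read 4.58 for gst-11 against 3.84 and 3.90, replicate 2 of that group read 3.10 for gst-14 against 2.45 and 2.41, and 2.52 for gst-44 against 2.11 and 2.17. These genes were chosen after their values were seen, and no comparison of the main fit called them. With the filter on low values, gst-11 was called higher in MT KO than in wild type with Cd (difference 0.67, limma adjusted p = 0.0354). It passed that filter only through its mean of 4.11 in MT KO with Cd, the group where it was high. That call therefore gives no support to a strain difference, and the main fit gave limma adjusted p = 0.108.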
